A study of Mus musculus with 9 samples.

Results

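The 6 genes described here, *Nppa*, *Nppb*, *Npr1*, *Npr2*, *Npr3* and *Corin*, make up the natriuretic peptide system of the heart, and they were chosen by name from the 24571 genes of the expression table. The table covers whole hearts of C57BL/6N mouse embryos at stage E18.5, late in gestation, in 3 libraries each from wild-type embryos, from embryos heterozygous for the CTCF-R567W allele and from homozygous embryos. R567W is an amino acid substitution in CTCF, a DNA-binding zinc finger protein that shapes chromatin loops. It was introduced by CRISPR/Cas9 editing into the germline, so that every cell of a mutant embryo carried it, and whether more than 1 founder line was used is not given in the sources used here. Poly-A RNA was sequenced from hearts kept in separate tubes. The comparisons ask how 1 or 2 copies of the allele bear on gene expression in the heart. As the labels do not name litters or dams, p-values measure only the spread between these libraries. All 6 genes had a mean of at least 1 TPM, a transcript abundance corrected for gene length and library total, and so all 6 were among the 13682 genes tested.

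Natriuretic peptides are hormones that heart muscle makes and secretes, and that lower blood volume and pressure. *Nppa* encodes the precursor of atrial natriuretic peptide (ANP) and *Nppb* that of brain natriuretic peptide (BNP), and the genes lie side by side and are switched on together in the embryonic heart. Corin is a membrane protease on heart muscle cells that cuts the ANP precursor. NPR1 binds ANP and BNP and NPR2 binds C-type natriuretic peptide, and both are receptor guanylyl cyclases that make cyclic GMP when bound. NPR3 lacks the cyclase part and takes up and clears all these peptides. In the fetal heart *Nppa* marks the atria and the ventricular trabeculae, and *Nppb* is also known as a gene that responds to stretch.

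The markers of heart muscle were high in every library, with 9 genes summing to between 20675 and 28334 TPM, and 3 libraries also held transcripts of other organs. The sum of 12 airway and lung markers reached 2634 TPM for wild-type replicate 1 and 1116 TPM for heterozygous replicate 1, against 8.24 to 59.1 TPM elsewhere. Heterozygous replicate 1 also held 4163 TPM of 13 liver markers. In homozygous replicate 3, 14 thymus markers summed to 653 TPM, against 3.98 to 11.8 TPM elsewhere, and the heart muscle sum was the lowest of the 9. *Ctcf* itself differed by a log2 of 0.52 between homozygous and wild-type hearts (limma, adjusted p = 0.107), and an amino acid substitution cannot be checked from this level. Over all genes tested the median log2 change was 0.23 in homozygous against wild-type hearts, 0.15 in heterozygous against wild-type hearts and 0.08 in homozygous against heterozygous hearts. Changes of single genes are therefore also given relative to this median.

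On mouse build mm10 (GENCODE M21), *Nppb* (ENSMUSG00000029019.8) lies on the plus strand at chr4:147985788-147987205 and *Nppa* (ENSMUSG00000041616.9) on the same strand at chr4:148000722-148002079, with 13.5 kb between the end of one and the start of the other. A RefSeq promoter (GRCm38.p6, the mm10 assembly) was matched for all 6 genes. The sequence in front of both peptide genes is shown because the 2 neighbours are a textbook pair under shared cardiac factors and have the highest levels of the 6 genes. Capitals mark matches to short motifs that were searched on both strands in the 250 bases before the RefSeq start, and which do not overlap each other in these stretches. The RefSeq start of *Nppb* lies inside the GENCODE transcript, so that the 2 short stretches are in its first exon.
Nppa, chr4:148000472-148000721, plus strand: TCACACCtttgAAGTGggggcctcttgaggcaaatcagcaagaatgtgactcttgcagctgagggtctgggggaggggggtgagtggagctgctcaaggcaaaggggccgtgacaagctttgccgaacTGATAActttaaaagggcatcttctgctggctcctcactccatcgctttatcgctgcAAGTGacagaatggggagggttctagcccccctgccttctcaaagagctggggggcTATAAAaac
Nppb, chr4:147985650-147985787, plus strand, in front of the GENCODE transcript: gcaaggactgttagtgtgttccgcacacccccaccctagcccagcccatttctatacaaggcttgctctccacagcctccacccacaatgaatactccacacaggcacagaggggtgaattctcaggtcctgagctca
Nppb, chr4:147985799-147985828, plus strand: tgcagcTGATAAatcagAGATAAccccacc
Nppb, chr4:147985857-147985886, plus strand: actcagccccagTATAAAaggcagaggcac

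The GATA motif, searched as TGATAA or AGATAA, was found 122 bases before the *Nppa* start and 95 and 84 bases before the *Nppb* start, and 17.0% of 27025 RefSeq promoters hold it in this window. The TATA box, TATAAA, was found 9 bases before the start of *Nppa* and 31 bases before that of *Nppb*, and 13.0% of promoters hold it. The letters AAGTG of the NKX2-5 motif stood 239 and 65 bases before the *Nppa* start, with a share of 40.8% of promoters, and the T-box letters TCACACC stood 250 bases before it, with a share of 3.31%. The MCAT letters GGAATG matched 105 bases before the *Nppb* start, with a share of 12.6%. This match begins before the printed GATA stretch of *Nppb*, and its end is left in small letters at the start of that stretch. These matches describe the letters and were not tested for binding.

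*Nppa* was by far the most abundant of the 6 transcripts, the 20th to 38th most abundant gene of a library and 0.203% to 0.564% of its TPM. Its level was 4788, 4325 and 4244 TPM among the wild-type libraries, then 4500, 5630 and 4843 TPM among the heterozygous and 5237, 3837 and 2031 TPM among the homozygous libraries. The groups overlapped, and the lowest value was that of homozygous replicate 3, with replicate 2 also below all wild-type and heterozygous values. The means were 4452 ± 293 TPM among wild-type, 4991 ± 579 TPM among heterozygous and 3702 ± 1607 TPM among homozygous hearts (SD, n = 3 each). The log2 change of *Nppa* on the log2(TPM + 1) scale was -0.37 in homozygous against wild-type hearts (SE 0.27, 95% confidence interval -0.96 to 0.22, adjusted p = 0.381). Relative to the median of all genes it was -0.60. It ran from -0.67 without homozygous replicate 1 to 0.01 without homozygous replicate 3. In heterozygous against wild-type hearts the change was 0.16 (interval -0.43 to 0.75, adjusted p = 0.828), a direction that median-ratio scaling of the libraries removed, and in homozygous against heterozygous hearts it was -0.53 (interval -1.12 to 0.06, adjusted p = 0.738), and from -0.83 to -0.15 without homozygous replicate 1 or 3. With *Xist*, a transcript of female cells, as a covariate the last 2 were -0.20 and -0.17. No comparison of *Nppa* passed the test. In whole hearts, fewer cells of a type and less RNA per cell cannot be told apart.

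The second peptide gene stood lower in homozygous hearts. *Nppb* was at 911, 752 and 357 TPM among the wild-type libraries, then 545, 649 and 396 TPM among the heterozygous and 306, 129 and 200.5 TPM among the homozygous libraries. All 3 homozygous values lay below all 6 others, and wild-type replicate 3 was closest to them. The means were 673 ± 285, 530 ± 127 and 212 ± 88.8 TPM (SD, n = 3 each), so that the homozygous mean was 3.18-fold below the wild-type mean and 2.50-fold below the heterozygous mean. The log2 change in homozygous against wild-type hearts was -1.64 (SE 0.37, interval -2.46 to -0.82, unadjusted p = 0.00113), which did not pass the test over all genes (limma, adjusted p = 0.0882) and ranked 172 by p among all genes tested. Relative to the median of all genes the change was -1.87. Against heterozygous hearts it was -1.38 (interval -2.19 to -0.56, unadjusted p = 0.00371, adjusted p = 0.495). Heterozygous and wild-type hearts overlapped, with a change of -0.27 (interval -1.09 to 0.55, adjusted p = 0.793), which moved to -0.67 when wild-type replicate 3 was left out and to 0.0033 when replicate 1 was. *Xist* was above 1 TPM in 3 of 3 heterozygous libraries, 1 of 3 wild-type and 1 of 3 homozygous libraries. With *Xist* as a covariate the *Nppb* change was -0.85 in heterozygous against wild-type hearts and -0.80 in homozygous against heterozygous hearts, neither of which passed, and -1.64 in homozygous against wild-type hearts (adjusted p = 0.0672).

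**Figure D1:**
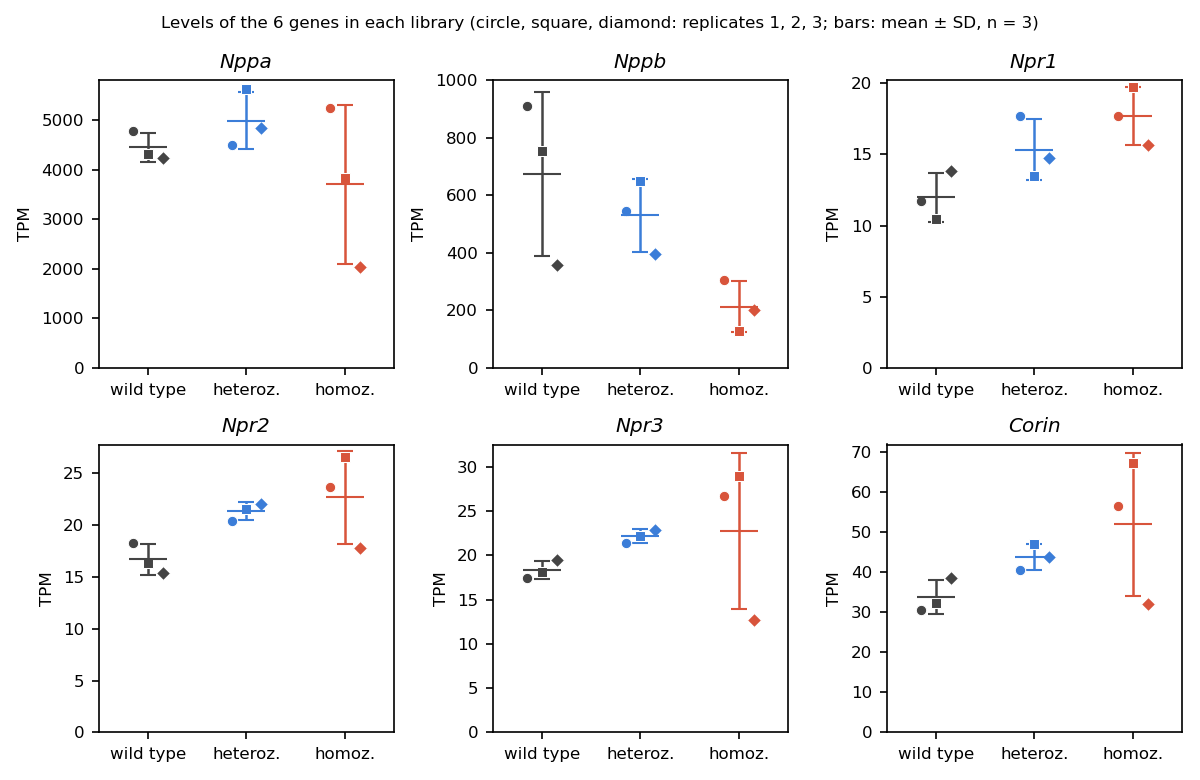
Levels of the 6 genes in TPM (vertical axes, each from 0) by genotype. Each point is 1 library, with a circle, square or diamond for replicate 1, 2 or 3, and the bars give the mean ± SD of 3 libraries. The homozygous *Nppb* values, 129 to 306 TPM, lie below all others, and the diamond of homozygous replicate 3 is low for *Nppa*, *Npr3* and *Corin*.

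The *Nppb* change in homozygous against wild-type hearts stayed below 0 whichever library was left out, but its size moved. It ran from -1.33 without homozygous replicate 2 to -2.05 without wild-type replicate 3, and only in the latter of the fits that left out 1 library did it pass the test (adjusted p = 0.0187, against a range of 0.0106 to 0.379 over all alternative settings). Wild-type replicate 3 differed from the other wild-type libraries in further measures. Its red cell markers summed to 2853 TPM against 11908 and 14604 TPM, and *Ctgf*, a gene that responds to stretch and serum and was singled out after its values were seen, stood at 120 TPM against 668 and 550 TPM. The heterozygous libraries had 5114 to 15542 TPM of red cell markers and the homozygous libraries 4305 to 5148 TPM. With TPM rescaled without mitochondrial and haemoglobin genes the *Nppb* change was -1.70, and without the 3 libraries that held lung, liver or thymus transcripts, a choice made after the data were seen, it was -1.38 (adjusted p = 0.179). The part of the other measures in the *Nppb* values was not tested.

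**Figure D2:**
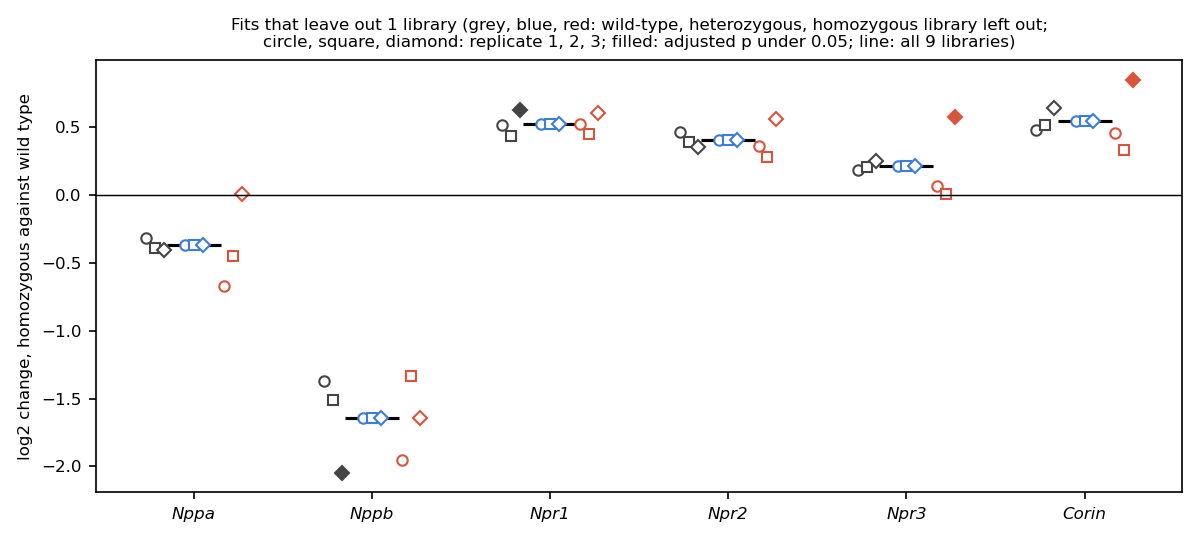
Log2 change of each gene in homozygous against wild-type hearts (vertical axis, log2(TPM + 1) scale) when 1 of the 9 libraries is left out. The line is the value from all 9 libraries, colours give the genotype and symbols the replicate left out, and filled symbols have an adjusted p under 0.05. The filled points are *Nppb* (-2.05) and *Npr1* (0.63) without wild-type replicate 3, and *Npr3* (0.57) and *Corin* (0.85) without homozygous replicate 3.

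A ratio of the 2 peptide transcripts within a library does not depend on how libraries are scaled. *Nppb* amounted to 19.0%, 17.4% and 8.40% of *Nppa* in the wild-type libraries. It was 12.1%, 11.5% and 8.17% in the heterozygous and 5.84%, 3.37% and 9.87% in the homozygous libraries. The groups overlapped, since homozygous replicate 3, where *Nppa* was low, had a higher ratio than wild-type replicate 3. The means were 14.9 ± 5.72%, 10.6 ± 2.13% and 6.36 ± 3.28% (SD, n = 3 each). The sum of both transcripts was 4600 to 5698 TPM among wild-type, 5045 to 6278 TPM among heterozygous and 2232 to 5543 TPM among homozygous libraries, most of it *Nppa*.

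Across the 9 libraries the 2 peptide genes varied in the same direction, but the correlation did not pass the test. Pearson's r of log2(TPM + 1) was 0.55 (exact permutation p = 0.127, adjusted over the 15 pairs of the 6 genes 0.212) and Spearman's rho was 0.48 (exact permutation p = 0.194, adjusted 0.323). Without heterozygous replicate 2 and homozygous replicate 3, the libraries farthest from the median of *Nppa*, r was 0.43, and r of the residuals from the genotype means was 0.30. With median-ratio scaling r was 0.73 (exact permutation p = 0.0219, adjusted 0.164). In the plot of *Nppb* against *Nppa*, homozygous replicates 1 and 2 stood at low *Nppb*. Their *Nppa* levels were 5237 TPM, within the 4244 to 5630 TPM of the other genotypes, and 3837 TPM, below that range.

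**Figure D3:**
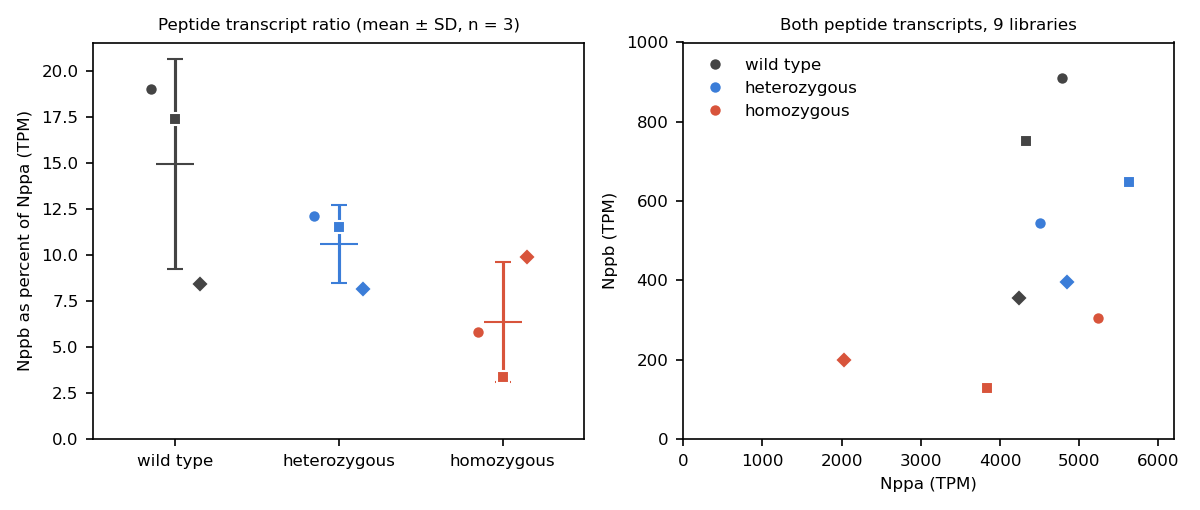
Left, *Nppb* as a percentage of *Nppa* in each library, with the mean ± SD of 3 libraries per genotype. Right, *Nppb* against *Nppa* in TPM, 1 point per library (circle, square and diamond are replicates 1, 2 and 3). Ratios run from 3.37% to 19.0%, and homozygous replicate 3 lies at the lowest *Nppa* level, 2031 TPM.

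The neighbours of the pair were read to see whether the difference reached beyond *Nppb*. Those reported, in order from the left, are *Fv1*, *Mfn2*, *Gm13156*, *Plod1* and *2510039O18Rik* before *Nppb*, and *Gm13054*, *Clcn6*, *Gm13207* and *Gm13201* after *Nppa*. Of these 9, 6 were tested and none passed the test in any comparison. *Gm13156*, *Gm13207* and *Gm13201* were at 0 in most libraries and were not tested. On the side of *Nppb*, the log2 change in homozygous against wild-type hearts was 0.26 for *Fv1*, 0.08 for *Mfn2*, which encodes a mitochondrial fusion protein, 0.13 for *Plod1*, a collagen lysyl hydroxylase, and 0.20 for *2510039O18Rik*. The median of all genes in this comparison was 0.23. On the side of *Nppa*, *Clcn6* had a log2 change of 0.30 (adjusted p = 0.210). *Gm13054* was the only tested neighbour below 0 in this comparison, with a log2 change of -0.53 (adjusted p = 0.380), and it had -0.80 in homozygous against heterozygous hearts (adjusted p = 0.722).

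*Gm13054* is an antisense transcript at chr4:148001091-148004014 that overlaps *Nppa*, and its levels of 4.28 to 24.9 TPM had their lowest value in homozygous replicate 3, as those of *Nppa* did. Whether reads were counted by strand is not given in the sources used here. Without strand, reads in the stretch that *Gm13054* and *Nppa* share cannot be told apart.

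**Figure D4:**
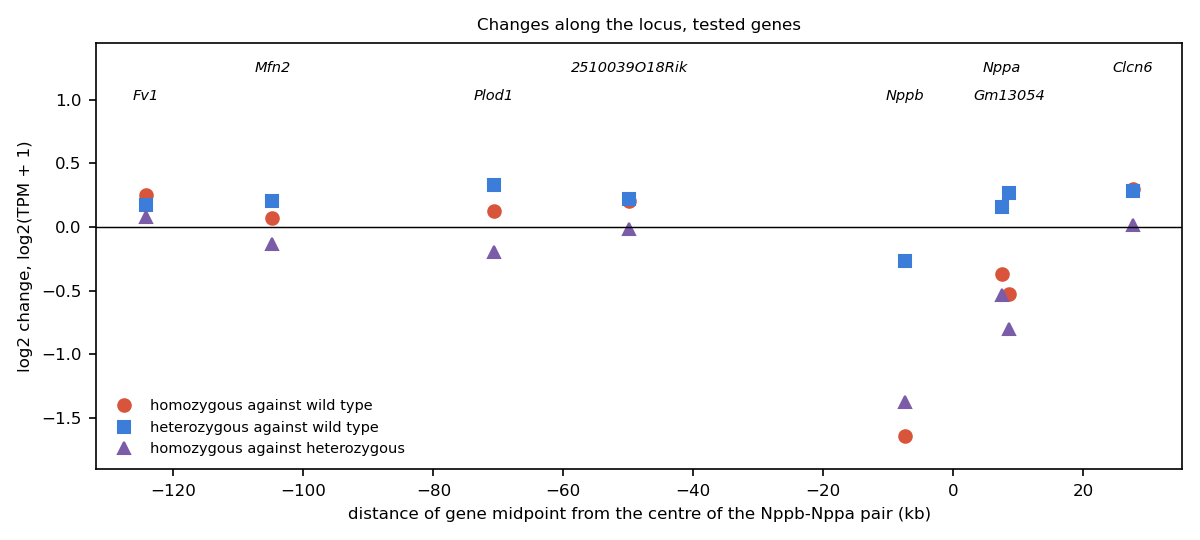
Log2 change on the log2(TPM + 1) scale (vertical axis) of 8 tested genes at the locus, against the distance of each gene's midpoint from the centre of the *Nppb*-*Nppa* pair in kb. Circles, squares and triangles are the 3 comparisons. *Nppb* has the lowest values, -1.64 and -1.38 in the comparisons of homozygous hearts.

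*Corin* (ENSMUSG00000005220.10, chr5:72300025-72504473, minus strand), the protease of the ANP precursor, was the most abundant of the other 4 genes. Its level was 30.4, 32.3 and 38.7 TPM among the wild-type libraries, then 40.6, 47.1 and 43.9 TPM among the heterozygous and 56.5, 67.1 and 32.2 TPM among the homozygous libraries. All heterozygous values and homozygous replicates 1 and 2 were above the wild-type range, and homozygous replicate 3 was within it. The means were 33.8 ± 4.30, 43.8 ± 3.22 and 51.9 ± 17.9 TPM (SD, n = 3 each). The log2 change was 0.55 in homozygous against wild-type hearts (SE 0.23, interval 0.04 to 1.05, adjusted p = 0.174) and 0.37 in heterozygous against wild-type hearts (interval -0.13 to 0.87, adjusted p = 0.672). Relative to the median of all genes these were 0.32 and 0.22, and with median-ratio scaling they were 0.31 and 0.21. Without homozygous replicate 3 the first was 0.85 and passed the test (adjusted p = 0.0228, against 0.00893 to 0.488 over all alternative settings). *Nppa* transcript per *Corin* transcript, another ratio within a library, was 157, 134 and 110 in wild-type, 111, 120 and 110 in heterozygous and 92.8, 57.2 and 63.2 in homozygous libraries. The homozygous ratios lay below all others, although neither gene alone separated homozygous hearts from the rest. How many other genes would give such a ratio with *Nppa* was not counted.

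The guanylyl cyclase receptor of ANP and BNP had a little more TPM in homozygous than in wild-type hearts, but did not pass the test. *Npr1* (ENSMUSG00000027931.12, chr3:90450591-90465866, minus strand) was at 11.7, 10.5 and 13.8 TPM among wild-type, 17.7, 13.5 and 14.8 TPM among heterozygous and 17.7, 19.8 and 15.6 TPM among homozygous libraries. The homozygous and wild-type groups did not overlap, and the heterozygous values reached into both. The means were 12.0 ± 1.71, 15.3 ± 2.15 and 17.7 ± 2.06 TPM (SD, n = 3 each), a ratio of 1.48 between homozygous and wild-type hearts. The log2 change was 0.53 (SE 0.15, interval 0.19 to 0.86, unadjusted p = 0.00555, adjusted p = 0.113), or 0.30 relative to the median of all genes. With median-ratio scaling it was 0.30 and with quantile normalization 0.26. The change in deposited TPM reached 0.63 without wild-type replicate 3 and then passed the test (adjusted p = 0.0325, against 0.01 to 0.392 over all alternative settings). In heterozygous against wild-type hearts the change was 0.33 (interval -0.01 to 0.66, adjusted p = 0.672).

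*Npr2* (ENSMUSG00000028469.15, chr4:43631935-43651244, plus strand), the receptor of C-type natriuretic peptide, lies on the same chromosome as the peptide pair but far from it. It was at 18.3, 16.4 and 15.4 TPM among wild-type, 20.4, 21.6 and 22.1 TPM among heterozygous and 23.7, 26.6 and 17.8 TPM among homozygous libraries. In deposited TPM the heterozygous values were all above the wild-type values, while homozygous replicate 3 lay among the latter. The log2 change was 0.41 in homozygous (SE 0.15, interval 0.07 to 0.74, adjusted p = 0.149) and 0.34 in heterozygous hearts (interval 0.01 to 0.67, adjusted p = 0.672) against wild type, and 0.17 and 0.19 relative to the medians of all genes. With median-ratio scaling the changes were 0.17 and 0.18, and with *Xist* as a covariate the heterozygous one was 0.24. *Nppc*, the gene of the NPR2 ligand, was at 0.00 to 1.07 TPM and was not tested.

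*Npr3* (ENSMUSG00000022206.7, chr15:11839896-11907287, minus strand), the clearance receptor, was at 17.5, 18.1 and 19.4 TPM among wild-type, 21.4, 22.2 and 22.9 TPM among heterozygous and 26.7, 28.9 and 12.6 TPM among homozygous libraries. In deposited TPM the heterozygous values again lay above the wild-type values. The homozygous libraries held both the highest values of all 9 and the lowest, that of replicate 3. The log2 change in homozygous against wild-type hearts was 0.22 (SE 0.25, interval -0.33 to 0.76, adjusted p = 0.577), which turned to -0.02 with median-ratio scaling and to -0.03 with quantile normalization. Without homozygous replicate 3 it was 0.57 and passed the test (adjusted p = 0.0408, against 0.0291 to 0.992 over all alternative settings). In heterozygous against wild-type hearts it was 0.26 (interval -0.29 to 0.81, adjusted p = 0.721). This heterozygous change was 0.104 with median-ratio scaling, 0.099 with quantile normalization and 0.14 with *Xist* as a covariate.

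By TPM, which is per length, *Npr3* and *Npr2* were at like levels in wild-type hearts and *Npr1* was lower. The 3 receptors together came to 45.0 to 48.7 TPM among wild-type, 57.3 to 59.7 TPM among heterozygous and 68.1, 75.3 and 46.0 TPM among homozygous libraries. *Npr3* made up 35.9% to 40.3% of this sum in all libraries except homozygous replicate 3, where it made up 27.5%. That library also had the lowest sums of atrial markers (3021 TPM against 4318 to 6729 TPM), of trabecular markers (207 TPM against 264 to 363 TPM) and of fibroblast and epicardial markers (888 TPM against 1146 to 1959 TPM). Endothelial and endocardial markers, 12 genes, summed to 560 to 721 TPM among wild-type, 675 to 805 TPM among heterozygous and 813, 891 and 593 TPM among homozygous libraries. Other sums did not overlap between homozygous and wild-type hearts, as was so for *Nppb* and for 24.7% of all single genes. The 8 ventricular markers summed to 20098.6, 18661 and 17237 TPM among homozygous libraries, below all 6 others, of which the lowest was 20098.9 TPM and the highest 22476 TPM. The 8 markers of smooth muscle and pericytes came to 549, 344 and 422 TPM, against 595 to 717 TPM among wild-type libraries and 483 to 706 TPM among heterozygous ones. In homozygous against wild-type hearts the median log2 change was -0.03 over the ventricular markers and 0.01 over those of smooth muscle and pericytes. Over all genes it was 0.23. A summed TPM is led by the most abundant genes of its list. None of the genes in these marker lists passed the test in any comparison, and the part of cell composition in the levels of *Nppb* and the receptors was not tested.

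Counted over the 6 genes, none passed the test in homozygous against wild-type hearts, where 46 of 13682 genes did (0.336%), none in heterozygous against wild-type hearts (0.0146% of all genes) and none in homozygous against heterozygous hearts (0.0439%). At an unadjusted p under 0.05 there were 4, 1 and 1 of the 6, beside 3426, 940 and 978 of all genes. Groups did not overlap for 2 of 6 genes in homozygous against wild-type hearts, against 24.7% of all genes. The corresponding counts were 3 of 6 against 13.8% in heterozygous against wild-type hearts and 1 of 6 against 15.9% in homozygous against heterozygous hearts. The medians of the 6 log2 changes were 0.31, 0.29 and 0.01, beside 0.23, 0.15 and 0.08 over all genes. The comparisons share libraries, so that their values are not independent of each other.

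**Figure D5:**
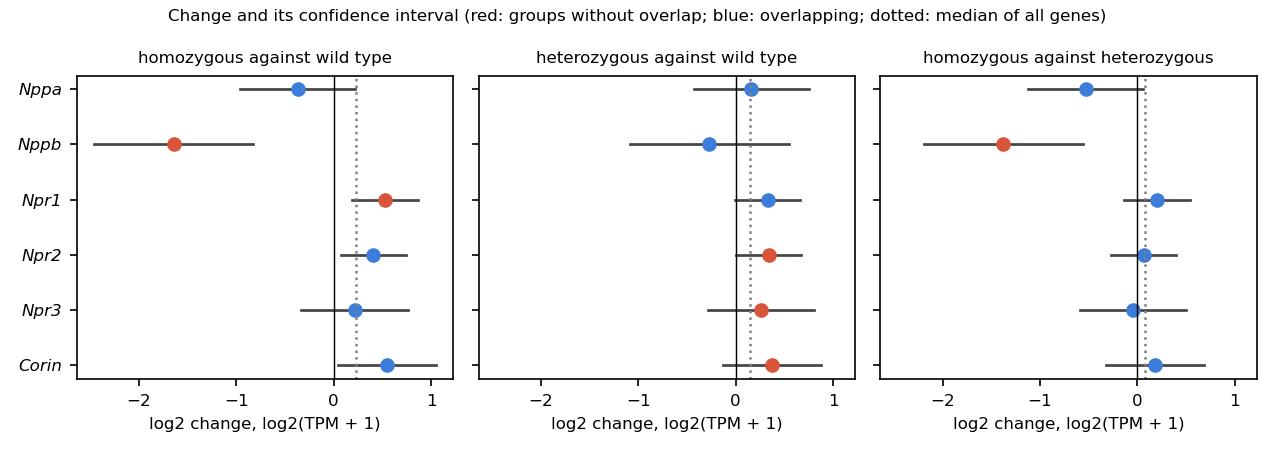
Log2 change of each gene (points) with its 95% confidence interval (lines) in the 3 comparisons, on the log2(TPM + 1) scale. Red points mark genes whose 2 groups did not overlap, and the dotted line is the median change of all 13682 genes. *Nppb* is the only 1 of the 6 genes with an interval below 0 in both comparisons of homozygous hearts.

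Among the 15 pairs of the 6 genes, *Npr3* and *Corin* varied together most closely over the 9 libraries. Their r was 0.89 (exact permutation p = 0.00111, adjusted 0.0167) and rho was 0.97 (exact permutation p = 0.000165, adjusted 0.00248). Without homozygous replicates 2 and 3, the libraries farthest from the median, r was 0.98, and within genotypes, over residuals from the means, it was 0.96. For *Npr2* and *Corin* r was 0.87 (exact permutation p = 0.00297, adjusted 0.0223) and rho was 0.82 (exact permutation p = 0.0108, adjusted 0.0404), with r = 0.94 without wild-type replicate 3 and homozygous replicate 2. With median-ratio scaling these r were 0.80 (adjusted permutation p = 0.0927) and 0.65 (adjusted permutation p = 0.234), and neither passed. *Nppb* and *Npr1* ran in opposite directions, with rho -0.83 (exact permutation p = 0.00827, adjusted 0.0404) but r -0.77 (exact permutation p = 0.0160, adjusted 0.0598). Their r was -0.56 without wild-type replicate 1 and homozygous replicate 2, and with scaling it was -0.62 (adjusted permutation p = 0.234). *Npr2* and *Npr3* likewise passed by rho, 0.85 (exact permutation p = 0.00607, adjusted 0.0404), and not by r, 0.77 (exact permutation p = 0.0131, adjusted 0.0598), and with scaling r was 0.61 (adjusted permutation p = 0.256). None of the remaining pairs passed by r or rho. The permutations shuffled all 9 libraries, so that differences between genotypes also enter these p-values. Over residuals from the genotype means, r was -0.54 for *Nppb* and *Npr1*, 0.77 for *Npr2* and *Corin* and 0.86 for *Npr2* and *Npr3*.

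The genes most like each member over the 9 libraries, among genes whose mean reached 5 TPM, are given as a description without a test, and points of 1 library share its composition. For *Nppa* they were *Bmp10*, a growth factor gene of trabecular and atrial muscle (r = 0.956), *Clu* (0.947) and *Gm8226* (0.946). *Bmp10* was at 76.7, 61.8 and 59.4 TPM among wild-type, 50.3, 95.0 and 71.6 TPM among heterozygous and 75.2, 67.9 and 16.4 TPM among homozygous libraries, with its lowest value in the same library as *Nppa*. For *Nppb* they were *Sap30*, a subunit of a histone deacetylase complex (r = 0.957), *Nenf* (0.953) and *Gm29331* (0.941). *Sap30* was at 51.4, 52.6 and 32.1 TPM among wild-type, 43.6, 51.7 and 38.6 TPM among heterozygous and 37.3, 17.8 and 29.3 TPM among homozygous libraries, with the lowest values of *Sap30* and *Nppb* both in homozygous replicate 2. The nearest genes were *Jam3*, *Atp6ap2* and *Gpr137* for *Npr1* (r = 0.982, 0.981 and 0.975), *Polr2e*, *Il11ra1* and *Pak4* for *Npr2* (0.969, 0.960 and 0.959), *Mlf2*, *Unc5b* and *Ralb* for *Npr3* (0.974, 0.974 and 0.968) and *Epha4*, *Fam134a* and *Ttc28* for *Corin* (0.982, 0.979 and 0.977). After median-ratio scaling *Clu*, *Sap30*, *Nenf*, *Jam3*, *Pak4*, *Ralb*, *Epha4* and *Ttc28* were again among the 3 nearest, and the others were replaced.

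Around the 6 genes, the wider system was followed in 4 lists, of which 59 genes were in the table and 55 were tested. In homozygous against wild-type hearts 1 of the 55 fell and none rose, and in the other 2 comparisons none passed. The call is 1 of 55 where 0.336% of all genes passed. At an unadjusted p under 0.05 there were 12, 5 and 3 of the 55, beside 25.0%, 6.87% and 7.15% of all genes. The genes for other peptides, processing and clearance (5 tested) had a median change of 0.26 in homozygous against wild-type hearts. Their most abundant members were *Ide*, a protease that degrades natriuretic peptides, at 28.2 to 48.5 TPM with a change of 0.26, and *Furin*, the convertase of the BNP precursor, at 30.4 to 53.2 TPM with a change of 0.01.

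Downstream of the receptors, 15 genes of cyclic GMP signalling were tested and none passed in any comparison. Their median change in homozygous against wild-type hearts was 0.21, close to that of all genes, and 12 of 15 were above 0, beside 81.7% of all genes. The most abundant were *Vasp*, a substrate of cyclic GMP-dependent kinase, with a change of 0.21, and *Ppp1r12a*, a myosin phosphatase subunit, with 0.12. Of the 4 of 15 with an unadjusted p under 0.05, beside 25.0% of all genes, and named here after their values were seen, *Pde3b* was at 4.40, 4.66 and 6.27 TPM among wild-type and 7.50, 8.06 and 7.20 TPM among homozygous libraries, a change of 0.50 (adjusted p = 0.124). The others were *Pde3a*, like *Pde3b* a cyclic nucleotide phosphodiesterase that cyclic GMP inhibits (0.54), *Gucy1a3*, a subunit of the soluble guanylyl cyclase (0.59), and *Mrvi1* (0.61).

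The 21 transcription factors of the peptide promoters also did not pass the test. Their median change was 0.17 in both mutant groups against wild type. *Nkx2-5*, at 105 to 152 TPM, had a log2 change of -0.01 in homozygous against wild-type hearts, and *Gata4*, at 87.2 to 134 TPM, one of -0.16 (adjusted p = 0.449). The lowest value of each was in homozygous replicate 3. In homozygous against wild-type hearts 1 of the 21 had an unadjusted p under 0.05, beside 25.0% of all genes. This was *Rest*, which encodes a repressor known to act on *Nppa* and was singled out after its values were seen. It was at 5.66, 6.24 and 8.60 TPM among wild-type, 8.98, 8.67 and 10.5 TPM among heterozygous and 11.1, 11.7 and 9.53 TPM among homozygous libraries. The groups did not overlap in homozygous against wild-type hearts, as for 24.7% of all genes. The change of *Rest* was 0.60 (SE 0.16, limma, adjusted p = 0.109), beside a median of 0.23 over all genes.

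Of the 14 genes of the cardiac stress and fetal programme, with which the peptide genes are usually read, 3 were above 0 in homozygous against wild-type hearts, beside 81.7% of all genes, with a median of -0.19 against 0.23 over all genes. The list was not split by the direction its genes take under stress, so the count and median give no direction for the programme. *Acta1*, skeletal alpha-actin, was the one that fell. It was at 71.1, 79.6 and 66.2 TPM among wild-type, 88.2, 59.1 and 68.5 TPM among heterozygous and 36.2, 14.7 and 24.9 TPM among homozygous libraries. All homozygous values lay below all others, with the lowest in replicate 2, as for *Nppb*. The log2 change of *Acta1* was -1.56 (SE 0.27, limma, adjusted p = 0.0484), close to the threshold, and it ran from -1.23 to -1.86 with adjusted p of 0.0167 to 0.226 when 1 library was left out. It passed in these fits without wild-type replicate 3, homozygous replicate 1 or homozygous replicate 3, and not without any of the other 6 libraries. With the replicate number as a block the change was the same and did not pass (adjusted p = 0.0534). *Ctgf* and *Ankrd1*, which encodes a stretch-responsive muscle ankyrin repeat protein and was likewise singled out after its values were seen, had log2 changes of -2.58 (adjusted p = 0.0839) and -0.66 (adjusted p = 0.101). *Ctgf* was at 175, 98.5 and 104 TPM among the heterozygous and 84.2, 40.0 and 58.3 TPM among the homozygous libraries. *Xirp2*, an actin-binding protein gene also singled out afterwards, went the other way, at 1.44, 1.42 and 1.61 TPM among wild-type, 2.35, 2.87 and 3.00 TPM among heterozygous and 2.91, 2.62 and 1.93 TPM among homozygous libraries, a change of 0.48 (adjusted p = 0.174). The most abundant genes of the list were the cardiac myosin heavy chains, with a change of 0.21 for *Myh7* and -0.19 for *Myh6*, and the groups overlapped for both.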

How the data were processed

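RNA from embryonic mouse hearts (3 wild-type, 3 heterozygous and 3 homozygous libraries, grouped by their titles) was captured by its poly-A tails and sequenced by the authors. Per the labels and methods, the authors trimmed reads with Trim Galore, aligned them to mm10 with STAR and estimated expression with RSEM, and the deposited table gives TPM, estimated counts divided by gene length and library total. The annotation release and strand setting are not given in the sources used here. TPM keeps no depth, so counting error is unknown and precision comes from the 3 libraries of a group.

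Rows with symbols turned into dates (26 of 24597) were left out. Values were analysed as log2(TPM + 1) with a pseudocount of 1, for genes whose mean over the 9 libraries was 1 TPM or more. The 3 genotypes entered 1 linear model over the 9 libraries, without covariates and with a variance trend, in limma (v3.58.1; R v4.3.3). Tests were two-sided, with Benjamini-Hochberg adjustment over all 13682 genes of a comparison and a threshold of 0.05. The median SE of a log2 change was 0.18. The procedure was run on simulated data with known changes and independent noise for each value. The simulation held no shifts shared by the genes of a library, and so does not bear on such shifts. A count-based test was not possible on TPM.

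The 6 genes, the lists and the tests were chosen with earlier results of these data known. Named genes are the 6 members, list genes that passed the test, the 2 most abundant genes of each pathway list, the 5 listed neighbours on each side of the pair (1 of which is not reported here) and the 3 genes most correlated with each member. Genes named outside this rule are identified in the text. Correlations were tested by exact permutation (362880 orderings) with scipy (v1.17.1). Marker lists were summed as TPM. Promoters and motifs were read from RefSeq (GRCm38.p6) and coordinates from GENCODE M21. Alternatives changed the pseudocount, the filter, the scaling, the variance model, the library weights (limma's arrayWeights, gene-by-gene method, since the default did not converge), the libraries in the fit and the covariates.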

Additional observations from a re-analysis of the deposited data

How the results depend on the processing

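Of the 462 alternative values of the 6 log2 changes in the 3 comparisons, 453 stayed on the same side of the threshold, and 9 passed where the fit to all 9 libraries did not, all of them in homozygous against wild-type hearts. With library weights 5 of the 6 genes passed, with log2 changes of -1.68 (*Nppb*), 0.66 (*Npr1*), 0.50 (*Npr2*), 0.50 (*Npr3*) and 0.80 (*Corin*), as did 25 pathway genes, 2 neighbours of the pair and 5068 of all genes. When 1 library was left out, 0 to 2 of the 6 genes, 0 to 7 pathway genes and none of the neighbours reported passed. The changes then ran from -2.05 to -1.33 for *Nppb*, 0.44 to 0.63 for *Npr1*, 0.0075 to 0.57 for *Npr3* and 0.33 to 0.85 for *Corin*. The highest counts came without wild-type replicate 3, where 2161 genes of the table passed against 46, and without homozygous replicate 3, where 279 did. Among the pathway genes *Acta1* alone passed. The count was 2 with median-ratio scaling, and it was 0 with a pseudocount of 5, with no filter, with no trend, with a robust fit, with only the 2 groups compared, without the libraries holding lung or liver transcripts, without these and the one holding thymus transcripts, and with a fold above 2 and an adjusted p under 0.01. Counts over all genes in the other settings ran from 11 with only the 2 groups compared, and also without the libraries holding lung or liver transcripts, to 229 with median-ratio scaling, where 187 of the 229 were lower, against 20 of 46 before scaling. In heterozygous against wild-type hearts 0 to 6 genes passed against 2, and in homozygous against heterozygous hearts 0 to 43 against 6. Median-ratio scaling raised r of *Nppa* and *Nppb* to 0.73. The cause of these differences was not tested.

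The labels do not say whether libraries with the same replicate number were paired, and the values below do not settle it. Correlations of same-numbered libraries' deviations from their group means ran from -0.03 to 0.36, with 2 of 9 above 0.1, and 6 of 9 libraries correlated best with one of their own number. The 2 above 0.1 joined wild-type and heterozygous replicates 1 (0.36) and replicates 3 (0.30), against at most 0.12 between unlike numbers. Wild-type and heterozygous replicates 1 also both held lung transcripts, whose part in the 0.36 was not tested. With the replicate number as a block 17 genes passed in homozygous against wild-type hearts, none of the pathway genes (0), so that *Acta1* was lost (adjusted p = 0.0534), and none of the 6, and *Nppb* had an adjusted p of 0.0822. Since TPM keeps no depth, its part in the error of low genes such as *Nppc* is unknown.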
